A study of Mus musculus with 2 samples.

Results

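The genes of the enzymes that degrade cyclic AMP (cAMP) were examined in primordial germ cells (PGCs) that overexpressed Klf9. The group held the 10 genes Pde3a, Pde3b, Pde4a, Pde4b, Pde4c, Pde4d, Pde7a, Pde7b, Pde8a and Pde8b, chosen by name as the members of the PDE3, PDE4, PDE7 and PDE8 subfamilies. All 10 had 1 row in each expression file and were above 0 in both, out of 23320 gene symbols present in both files and 18742 of those that were above 0 in at least 1 library. PGCs give rise to the gametes. In this study, E13.5 PGCs carrying the Oct4-deltaPE-GFP transgene, which marks germ cells, were sorted from mouse genital ridges of both sexes, infected with lentivirus at an MOI of 5, and cultured for 1 day on gelatin. The control PGCs received a control lentivirus and the Klf9-OE PGCs a CSII-EF lentivirus with the Klf9 coding region, and each condition was sequenced as 1 library. The sample labels state that the medium contained bFGF, whereas the study's text describes the culture for RNA-seq as lacking it. Nothing in the sources states that infected cells were selected, so each library may include cells without the vector. With 1 library per condition there was no replicate check on any difference, and no p-value was calculated.

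Cyclic AMP is made from ATP by adenylate cyclases, which the drug forskolin activates directly, and cyclic nucleotide phosphodiesterases are the enzymes that hydrolyse it to AMP. The PDE4, PDE7 and PDE8 subfamilies are specific for cAMP, whereas PDE3 enzymes bind both cyclic nucleotides with high affinity and are inhibited by cGMP. PDE4 enzymes are the targets of rolipram, PDE8 enzymes are insensitive to the general inhibitor IBMX, and in the oocyte PDE3A keeps cAMP low enough for meiosis to resume. Forskolin has long been used to help cultured PGCs grow and convert into pluripotent embryonic germ cells.

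In the GENCODE annotation of mm10, the 10 genes lie at separate places on 8 chromosomes. Pde3b (chromosome 7, 114415281 to 114539251) and Pde8a (chromosome 7, 81213596 to 81334533) share a chromosome, as do Pde4d (chromosome 13, 108449948 to 109953461, plus strand) and Pde8b (chromosome 13, 95024454 to 95250336, minus strand). The other genes on the plus strand are Pde3a (chromosome 6, 141249269 to 141507448), Pde4a (chromosome 9, 21165714 to 21213248), Pde4b (chromosome 4, 102087543 to 102607259) and Pde4c (chromosome 8, 70723720 to 70751186). Pde7a (chromosome 3, 19223108 to 19311322) and Pde7b (chromosome 10, 20398004 to 20725078) lie on the minus strand. Pde3b and Pde8a are on the plus strand.

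What the 10 genes share at the level of sequence is the catalytic core. Each held a single match to the PDE family signature, a run of 12 residues around a pair of metal-binding histidine and aspartate residues, within 1 exon. The 36 bases coding for it are shown for 1 gene of each subfamily, taken 5′ to 3′ on the coding strand from GENCODE transcripts (mm10), with capitals at the 15 positions that were identical in all 10 genes.
Pde3b, chr7:114526921-114526956, plus strand, exon 12 of 16: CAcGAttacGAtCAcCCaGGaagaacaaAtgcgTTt
Pde4b, chr4:102599694-102599729, plus strand, exon 13 of 17: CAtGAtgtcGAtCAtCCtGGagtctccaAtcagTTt
Pde7a, chr3:19233715-19233750, minus strand, exon 8 of 13: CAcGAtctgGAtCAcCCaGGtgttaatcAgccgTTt
Pde8a, chr7:81324067-81324102, plus strand, exon 18 of 22: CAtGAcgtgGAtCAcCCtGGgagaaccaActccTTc
Over these 36 bases, the 9 pairs of genes within a subfamily shared 27 to 31 bases and the 36 pairs between subfamilies shared 19 to 28. No pair was identical over the stretch.

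KLF9 belongs to the Sp/KLF zinc-finger proteins, which bind GC boxes and CACCC boxes, and CREB proteins bind the cAMP response element (CRE), so the 250 bases before each RefSeq transcript start (GRCm38.p6) were searched on both strands for these letters. The table of promoters held 16 windows of 7 of the 10 genes and none for Pde3a, Pde3b and Pde7a. Windows of Pde8a, Pde4b and Pde4c are shown because these genes had the highest control level, the 1 pair of intervals that stayed apart under every width used and the ratio farthest from 1, respectively. Capitals mark the GC box GGGCGG and the CRE half-site TGACG, which reads CGTCA on the opposite strand.
Pde8a, chr7:81213015-81213264, plus strand: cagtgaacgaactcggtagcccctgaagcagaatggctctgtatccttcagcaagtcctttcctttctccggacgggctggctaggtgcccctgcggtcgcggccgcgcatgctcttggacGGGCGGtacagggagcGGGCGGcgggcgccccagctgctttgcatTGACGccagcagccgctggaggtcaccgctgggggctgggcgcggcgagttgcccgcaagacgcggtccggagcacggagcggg
Pde4b, chr4:102421305-102421554, plus strand: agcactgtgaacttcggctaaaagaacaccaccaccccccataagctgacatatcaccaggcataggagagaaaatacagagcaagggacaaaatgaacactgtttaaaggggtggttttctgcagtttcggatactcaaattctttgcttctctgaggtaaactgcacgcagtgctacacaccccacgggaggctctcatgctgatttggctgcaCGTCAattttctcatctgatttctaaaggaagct
Pde4c, chr8:70723814-70724063, plus strand: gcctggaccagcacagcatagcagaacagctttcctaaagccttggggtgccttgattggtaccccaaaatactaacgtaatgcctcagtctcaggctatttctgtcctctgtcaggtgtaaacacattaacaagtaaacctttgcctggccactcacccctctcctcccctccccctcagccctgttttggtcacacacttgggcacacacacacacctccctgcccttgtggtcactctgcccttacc
The Pde8a window held 2 GC boxes and 1 half-site, this Pde4b window 1 half-site and the Pde4c window neither. The other windows of Pde4b, not shown, held no half-site. A GC box was present in 5 of the 16 windows, which belonged to Pde4a, Pde8a and Pde8b, beside 32.7% of all 32851 windows. A half-site was present in 3 of 16 windows, of Pde4a, Pde4b and Pde8a, beside 17.8% of all windows. The full CRE, TGACGTCA, which contains the half-site, was in 0 of 16 beside 1.55%, and CACCC was in 12 of 16 beside 52.0%. The windows with CACCC belonged to 4 of the 7 genes, Pde4a, Pde4b, Pde4c and Pde8b, and included all 5 of Pde8b. The 5 windows of Pde8b fall into separate groups on chromosome 13, and those within a group overlap one another. Its GC boxes were in the 2 windows between 95223051 and 95223342 and in none of the 3 between 95250290 and 95250586. GC content was 68.8% in the Pde8a window, 46% in the Pde4b window shown and 53.2% in that of Pde4c, against a median of 52.4% over all windows.

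Klf9, the gene carried by the vector, was higher in the library labelled Klf9-OE. It had an FPKM (fragments mapped per kilobase of transcript, scaled to library size) of 2.27 with a Cufflinks 95% interval of 1.97 to 2.57 in the control. With Klf9-OE it was 80.8 (77.0 to 84.5), which is 35.6-fold higher. The reads implied by the widths of these intervals were 230 in control and 1825 with Klf9-OE, a smaller rise than that of the FPKM. Read totals are not in the files, but interval widths over 2798 genes put the depth of the Klf9-OE library at 1.22 times that of the control (median). These genes had at least 50 implied reads in each library and 1 listed transcription start in control. In neither library did they carry an identifier of a transcript assembled by Cufflinks. Genes of this kind with 1 to 9 implied reads, within 0.06 of a whole number, were also examined. Of these, 36.2% of 2004 genes had an even number in control PGCs and 89.6% of 1650 did with Klf9-OE. Intervals of the Klf9-OE library were therefore also used as if its reads had been counted in pairs, with their half-width multiplied by 1.41, and are then called widened. Counted that way, the depth of the Klf9-OE library would be 0.610 times that of the control, and implied reads of that library given here would be lower by the same factor of 2. The study describes single-end reads, and the source of the even numbers was not tested. All intervals cover estimation within a library and not differences between cultures.

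In control PGCs, transcripts of 3 genes made up most of the cAMP phosphodiesterase level. Pde8a, a high-affinity cAMP-specific enzyme, had an FPKM of 18.6 (95% interval 17.4 to 19.8), Pde7a, another cAMP-specific enzyme, 14.5 (13.8 to 15.2), and Pde3b, the membrane-bound PDE3 known from insulin action in fat cells, 11.9 (11.1 to 12.6). These 3 genes together reached 44.9 in control and 44.0 in Klf9-OE PGCs, or 83.6% and 86.4% of the summed FPKM of the 10 genes. Pde8a stood at percentile 74.0 of the genes above 0 in the control library, Pde7a at 69.2 and Pde3b at 65.5.

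**Figure D1:**
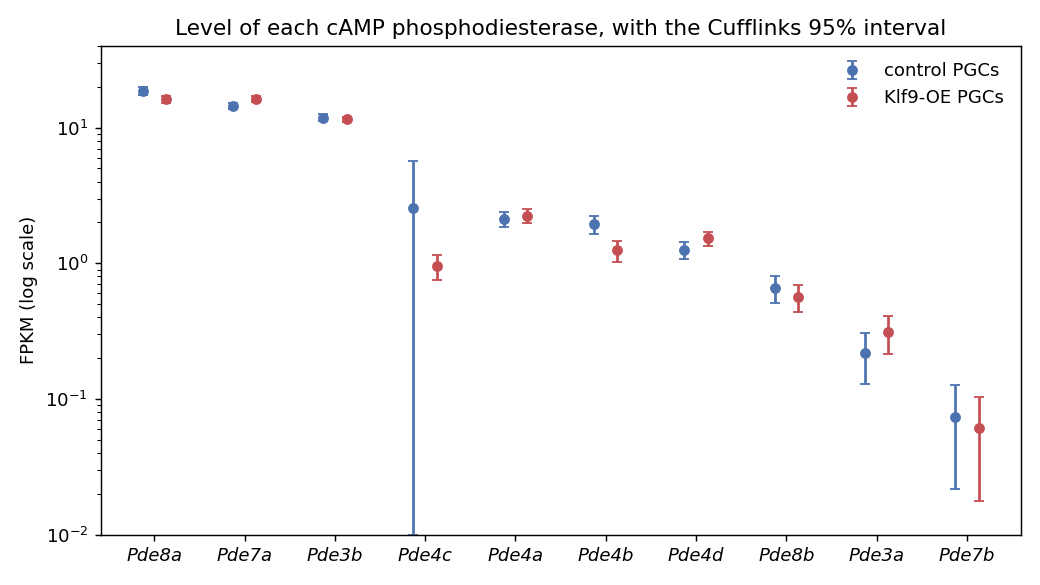
FPKM of each gene on a log scale in control PGCs (blue) and Klf9-OE PGCs (red), with points for the single library of each condition and bars for the Cufflinks 95% interval. Pde8a, Pde7a and Pde3b lay above 11 FPKM in both libraries, and the control interval of Pde4c ran down to 0, below the axis.

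The 4 genes of the rolipram-sensitive PDE4 subfamily formed a middle group. Their control FPKM ran from 1.26 in Pde4d to 2.57 in Pde4c, and their Klf9-OE FPKM from 0.951 in Pde4c to 2.25 in Pde4a. Pde8b, the second PDE8 gene, was below 1 in both libraries, at 0.655 (0.508 to 0.801) and 0.566 (0.437 to 0.695). Pde3a, the PDE3 of oocytes and heart muscle, was lower still at 0.218 (0.128 to 0.307) in control and 0.312 (0.215 to 0.410) in Klf9-OE PGCs. Pde7b was the lowest of the 10 in both libraries, at 0.0741 (0.0217 to 0.126) and 0.0607 (0.0178 to 0.104), each resting on about 8 implied reads, or 4 in Klf9-OE PGCs if reads were counted in pairs.

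The order of the genes was nearly the same in both libraries. In control PGCs it ran Pde8a, Pde7a, Pde3b, Pde4c, Pde4a, Pde4b, Pde4d, Pde8b, Pde3a and Pde7b, and the neighbours whose intervals overlapped were Pde4c with Pde4a and Pde4a with Pde4b. In Klf9-OE PGCs Pde7a stood above Pde8a, with overlapping intervals, and the PDE4 genes ran Pde4a, Pde4d, Pde4b and Pde4c. There the intervals of Pde4d and Pde4b overlapped, as did those of Pde4b and Pde4c.

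The summed FPKM of the 10 genes was 53.8 (50.2 to 57.3) in the control and 50.9 (49.5 to 52.3) with Klf9-OE, a ratio of 0.946 with an interval of 0.881 to 1.02 that included 1. In bulk libraries such as these, fewer cells of a type and less RNA per cell cannot be told apart. By subfamily, PDE3 genes summed to 12.1 and 11.8, a ratio of 0.982 (0.911 to 1.06). PDE4 genes summed to 7.89 and 5.98, a ratio of 0.758 (0.503 to 1.14), and without Pde4c to 5.32 and 5.03, a ratio of 0.945 (0.843 to 1.06). PDE7 genes summed to 14.6 and 16.3, a ratio of 1.12 (1.05 to 1.20), and PDE8 genes to 19.3 and 16.7, a ratio of 0.868 (0.798 to 0.944). The PDE7 and PDE8 intervals lay on opposite sides of 1.

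**Figure D2:**
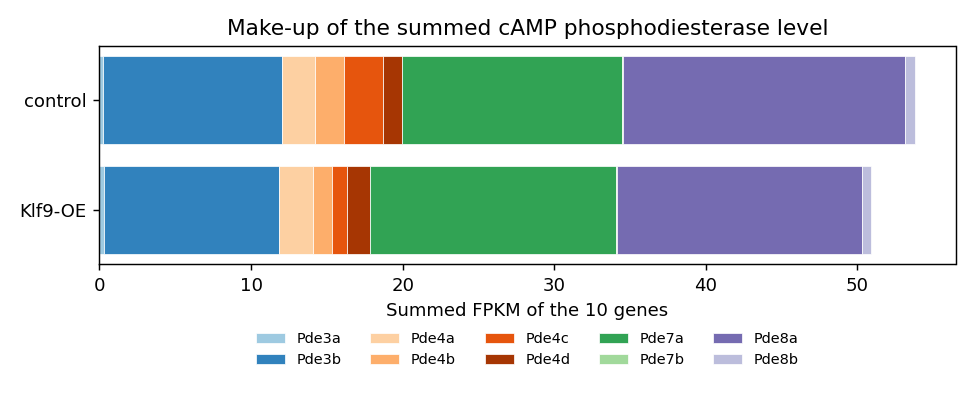
Summed FPKM of the 10 genes in each library, with 1 bar per library and 1 segment per gene. The bars end at 53.8 in control and 50.9 in Klf9-OE PGCs, and the segments of Pde3b, Pde7a and Pde8a fill most of both.

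Changes of the single genes between the libraries were small for most. The log2 fold change, calculated as log2(FPKM + 0.1) in Klf9-OE minus control, had a median of -0.08 over the 10 genes, with quartiles of -0.20 and 0.14, beside -0.02 over all 18742 genes. It was above 0 for 4 genes and below 0 for 6. None of the 10 was higher in Klf9-OE PGCs by 2-fold or more, where 9.82% of all genes were, and 1 was lower by that much, where 9.43% were. Among the 12565 genes with an FPKM of at least 1 in at least 1 library, which included 7 of the 10, those shares were 3.93% higher and 3.79% lower. The single 2-fold gene was Pde4c. As deposited, the interval in Klf9-OE PGCs lay wholly above that of the control for 1 gene, Pde7a, beside 11.2% of all genes, and wholly below it for 2, Pde4b and Pde8a, beside 14.4%. With the widened intervals 0 genes were higher, beside 8.46%, and 1 was lower, Pde4b, beside 12.0%. Read against these shares, none of the counts was a result about the 10 genes as a group.

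**Figure D3:**
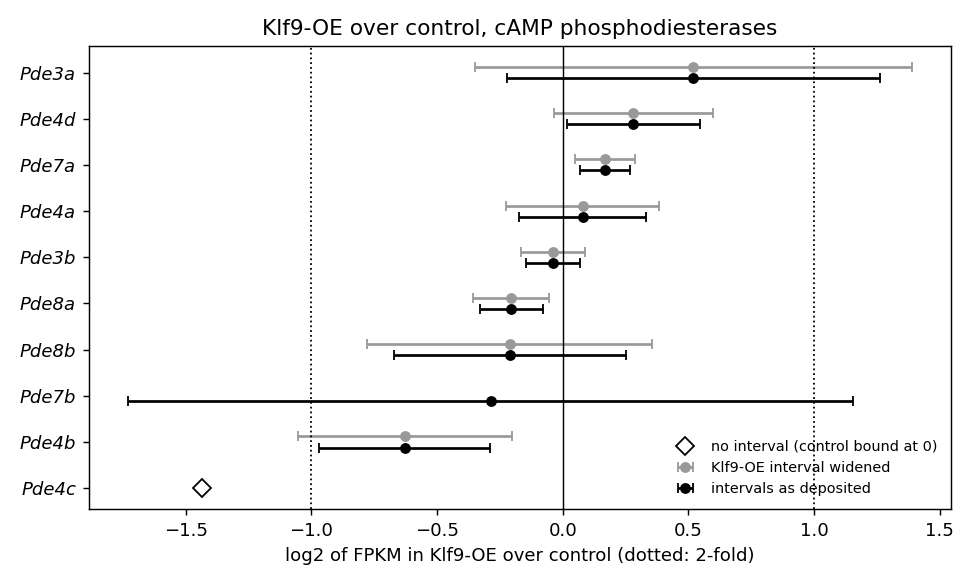
Log2 of the Klf9-OE over control FPKM ratio (no pseudocount) of each gene, with 95% intervals from the deposited bounds (black) and with the Klf9-OE interval widened (grey). With both, Pde4b and Pde8a lie below 0 and Pde7a above it, while Pde4c, whose control bound was 0, has no interval and Pde7b no widened one.

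Pde4b encodes a PDE4 of many promoters, best known from immune cells and the brain. Its FPKM was 1.93 (1.63 to 2.24) in control and 1.25 (1.03 to 1.47) in Klf9-OE PGCs, a ratio of 0.647 (0.511 to 0.819) and a log2 fold change of -0.59. It was the 1 gene of the 10 whose intervals stayed apart after widening, with a widened upper bound of 1.56 in Klf9-OE PGCs. The implied reads were 163 and 128, and after correction for depth their ratio of 0.644 was close to the ratio of FPKM. The control locus of Pde4b carried an identifier of a transcript assembled by Cufflinks and the Klf9-OE locus did not.

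Pde4c had the ratio farthest from 1 and the least certain control value. It was listed at 2.57 in control PGCs, with an interval from 0 to 5.72, and at 0.951 (0.755 to 1.15) in Klf9-OE PGCs, a 2.70-fold lower value with a log2 fold change of -1.34. The deposited intervals overlapped. The control interval was as wide as that of 2.65 reads, whereas the Klf9-OE interval matched 94.9 reads, so the implied reads were higher where the FPKM was lower, and after correction for depth their ratio was 79.3 times the ratio of FPKM. No interval of the ratio could be given.

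Pde4a and Pde4d were both slightly higher in Klf9-OE PGCs. Pde4a, a PDE4 found at membranes through its N-terminal anchors, had 2.13 (1.85 to 2.41) and 2.25 (1.99 to 2.51), a ratio of 1.06 (0.886 to 1.26). Pde4d, the PDE4 that binds beta-arrestins and AKAPs in heart, had 1.26 (1.08 to 1.43) and 1.53 (1.34 to 1.71), a ratio of 1.21. The interval of that ratio was 1.01 to 1.46 as deposited and 0.975 to 1.51 when widened, so it included 1 only after widening. Within the 1503514 bp of Pde4d on chromosome 13 (108449948 to 109953461), the control file also listed an unnamed locus of 249 bp at 11.8 FPKM (6.34 to 17.3), which overlapped no annotated Pde4d exon. The Klf9-OE file listed none there.

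Pde7a was higher and Pde8a lower in Klf9-OE PGCs, each by less than 1.5-fold. Pde7a had 14.5 (13.8 to 15.2) in control and 16.3 (15.5 to 17.0) in Klf9-OE PGCs, a ratio of 1.12 (1.05 to 1.20). The implied reads were 1573 and 1895, whose ratio after correction for depth was 0.987. Pde8a had 18.6 (17.4 to 19.8) and 16.2 (15.2 to 17.1), a ratio of 0.868 (0.797 to 0.947). Both pairs of intervals were apart as deposited and overlapped when widened, although the widened interval of the ratio still left out 1, at 1.03 to 1.22 for Pde7a and 0.782 to 0.964 for Pde8a. The share of the summed FPKM thereby moved from 34.6% to 31.7% for Pde8a and from 26.9% to 32.0% for Pde7a.

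The Pde8a value went with a difference in how its locus was drawn. GENCODE places Pde8a on the plus strand of chromosome 7 from 81213596 to 81334533 (mm10). The control locus began at 81213223, close to the RefSeq start, whereas the Klf9-OE locus began at 81213804. Between them the Klf9-OE file held an unnamed locus of 443 bp, from 81213317 to 81213759, which overlapped the annotated first exon at 4.73 FPKM (3.19 to 6.28). The start of the gene thus lay within the Pde8a row in control and in a row of its own in Klf9-OE PGCs. How much of the ratio of 0.868 this accounts for was not tested.

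The PDE3 genes did not differ beyond their intervals. Pde3b was 11.9 (11.1 to 12.6) in control and 11.5 (11.0 to 12.1) in Klf9-OE PGCs, a ratio of 0.973 (0.903 to 1.05), and Pde3a had a ratio of 1.43 (0.857 to 2.40). The implied reads of Pde3b were 1097 and 1970, a ratio of 1.47 after correction for depth. The Pde3b locus reached to position 114539072 of chromosome 7 in control and to 114537937 in Klf9-OE PGCs. At the 3′ end of the gene, the Klf9-OE file held unnamed loci of 298 bp at 4.25 FPKM and of 456 bp at 2.36 FPKM, both over annotated Pde3b exons, while the control file held an unnamed locus of 412 bp at 1.75 FPKM outside the annotated exons. Pde8b and Pde7b had ratios of 0.864 (0.628 to 1.19) and 0.820 (0.302 to 2.23).

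Because Cufflinks assembled transcripts in each library separately, a gene could have an assembled locus in a single library. Of the 10 genes, 4 (Pde4d, Pde7a, Pde8a and Pde8b) had an assembled identifier in both libraries, 3 (Pde3b, Pde4b and Pde4c) in control alone, 0 in Klf9-OE alone and 3 (Pde3a, Pde4a and Pde7b) in neither. Over all genes with an FPKM of at least 1 and a single row in each file, the direction of 2-fold differences went with this class. Of 2067 genes assembled in control alone, 1.55% were higher in Klf9-OE PGCs by 2-fold or more and 6.63% were lower by that much. Of 1190 genes assembled in Klf9-OE alone, 9.58% were higher and 1.85% lower. Of 5935 genes assembled in both, the shares were 3.32% and 2.93%, and of 3311 in neither, 4.44% and 4.20%. Both Pde4c and Pde4b, the members with the lowest ratios, were in the first of these classes. Whether the assembly lowered their ratios was not tested.

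**Figure D4:**
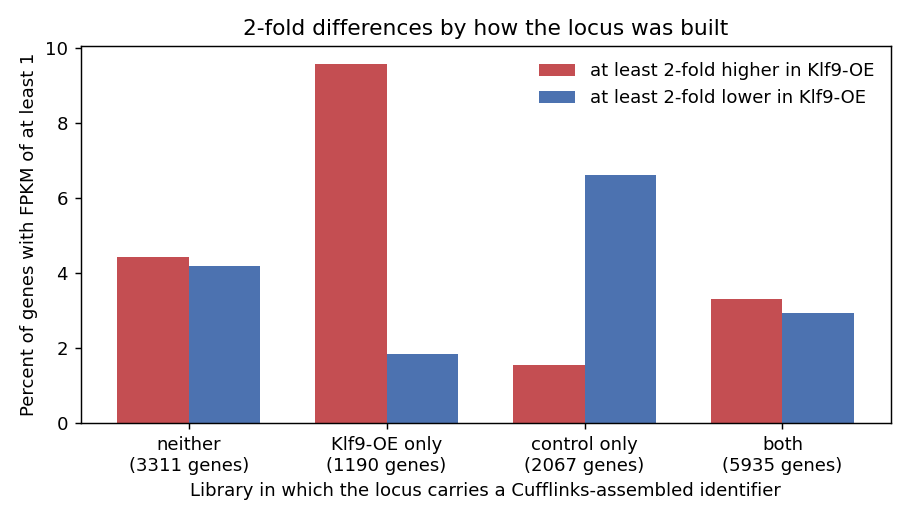
Percent of genes with an FPKM of at least 1 whose value with Klf9-OE was higher (red) or lower (blue) by 2-fold or more, by the library in which the locus carried an assembled identifier. Genes assembled in control alone were more often lower (6.63%) than higher (1.55%), and those assembled in Klf9-OE alone more often higher (9.58%) than lower (1.85%).

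Other phosphodiesterases and the rest of the cAMP pathway were set beside these genes. The list of dual and cGMP phosphodiesterases held 14 genes, not all of which encode a catalytic enzyme. Of these 14, 4 were higher by 2-fold or more (9.82% of all genes were) and 0 lower (9.43% were). For 2 of the 4 the intervals were apart (11.2% of all genes were apart in this direction). The other 2, added after their values were seen, were Pde6c, listed at 0 in control and at 0.0444 in Klf9-OE PGCs, and Pde6g, at 0.254 and 1.10, and the Klf9-OE interval of both reached 0. Pde2a, a dual enzyme stimulated by cGMP, was 1.47 (1.22 to 1.72) in control and 3.32-fold higher, at 4.89 (4.44 to 5.33), with Klf9-OE. Pde6b, a subunit of the photoreceptor cGMP enzyme, was 0.542 (0.368 to 0.716) and 2.95 (2.34 to 3.56), 5.44-fold higher. The implied reads of Pde2a were 2.87-fold higher after correction for depth, and those of Pde6b 1.96-fold. The median log2 fold change of these 14 was 0.10.

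The genes that make and read cAMP showed few 2-fold differences. Intervals as deposited were apart for 1 higher and 2 lower genes of cAMP synthesis, 0 and 2 effectors, 0 and 4 anchors, 2 and 2 cAMP-responsive genes and 0 and 2 kinases. Over all genes, intervals were apart for 11.2% in the higher and 14.4% in the lower direction. The shares of all genes past 2-fold were 9.82% higher and 9.43% lower. Of 11 genes of cAMP synthesis, 1 was at least 2-fold higher, the adenylate cyclase Adcy2, at 1.59 and 3.76 FPKM. Its implied reads went the other way, with a ratio of 0.817 after correction for depth. Adcy3 was 9.86 and 8.29, and Gnas, the stimulatory G protein subunit, 61.4 and 60.8. Of 16 effectors 0 passed 2-fold in either direction. The PKA regulatory subunit Prkar1a was 85.4 and 89.2, and Prkar2b 73.2 (69.2 to 77.2) and 52.1 (49.1 to 55.1). Of 15 anchors and partners 0 passed 2-fold, with Arrb2, a beta-arrestin, at 47.1 and 47.3. Of 14 cAMP-responsive genes, 1 was at least 2-fold higher, Egr1, at 3.76 (3.32 to 4.20) and 8.45 (7.85 to 9.04). In the same list Junb was 21.9 and 28.7 and Per1 was 16.5 and 11.8, and the median log2 fold change was 0.22. Of 6 kinases that phosphorylate PDE3 or PDE4 proteins 0 passed 2-fold. The highest of these, Akt2 at 119 and 93.6 and Mapk3 at 72.6 and 48.8, had Klf9-OE intervals that ran down to 0.

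**Figure D5:**
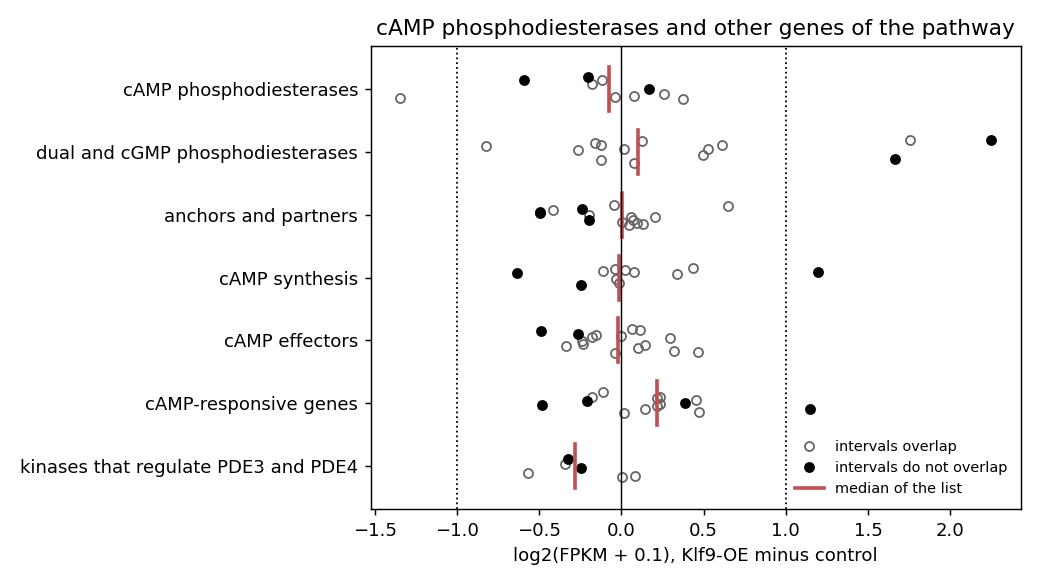
Log2 fold change (pseudocount 0.1) of each gene, 1 row of points per list, with filled points where the Cufflinks intervals were apart and a red bar at the list median. The median was -0.08 for the cAMP phosphodiesterases and 0.22 for the cAMP-responsive genes, and 3 filled points of the first row mark Pde4b, Pde8a and Pde7a.

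Markers of the sorted cells and of cells that a sort could carry over were read from the same libraries. All 10 germ cell markers were above 0 in both, with Dazl at 351 and 378 and Pou5f1 at 387 and 277, and their summed FPKM was 1759 in control and 1480 in Klf9-OE PGCs. For 8 of the 10 the Klf9-OE interval lay below that of the control, beside 14.4% of all genes. The 8 gonad somatic markers summed to 22.8 and 30.9, with Amh at 5.99 and 9.29, Gata4 at 6.21 and 7.47, and Star listed at 0 in control and at 2.39 in Klf9-OE PGCs. Intervals were apart for 4 of these markers in the higher and for 1 in the lower direction, beside 11.2% and 14.4% of all genes. Star, counted among the higher, carried an assembled identifier in control alone, where both its bounds were 0. Among the higher, Wt1 was 3.41 and 5.64, with a ratio of implied reads of 0.973 after correction for depth. The lower was Sox9 at 2.04 and 1.09, and Nr5a1 at 1.61 and 1.19 and Foxl2 at 0.314 and 0.257 were also lower in value. The 5 endothelial markers summed to 3.19 and 6.21, with Cdh5 at 1.995 and 5.09, Kdr at 0.367 and 0.465, Tek at 0.735 and 0.439, and Emcn listed at 0 in Klf9-OE PGCs. Without Cdh5 the other 4 summed to 1.20 and 1.12. The 6 blood and macrophage markers summed to 4.40 and 5.48, with Csf1r at 0.307 and 1.18 and a ratio of implied reads of 1.23, Cd68 at 3.69 and 4.11, and Hba-x listed at 0 in both. In the same list Ptprc was 0.0584 and 0.0239, Adgre1 0.0836 and 0.0196, and Hbb-y 0.263 and 0.143, with overlapping intervals. The markers of somatic, endothelial and blood cells thus moved in both directions. The somatic sum, and the endothelial sum through Cdh5 alone, were higher in the Klf9-OE library, as were Pde2a and Pde7a. The germ cell sum was lower there, as were Pde4b and Pde8a. With 2 libraries, every gene that differs goes with or against each sum, so this pairing cannot link a gene to a cell type. The part of these cells in the values was not tested.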

How the data were processed

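Per the labels and the study's methods, libraries were prepared with the TruSeq RNA kit v2, which does not mark strand, and 51-mer single-end reads were mapped to mm10 with TopHat2 and Bowtie. The authors deposited the FPKM of each locus in each library as Cufflinks estimated it, with 95% bounds; versions were not given in the sources used here. Because strand was not used, reads of a gene and of an antisense gene cannot be told apart, and non-coding genes lie antisense to Pde3a, Pde4d, Pde7a, Pde7b, Pde8a and Pde8b in GENCODE vM21. No protein-coding gene overlaps any of the 10 genes.

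FPKM was summed over rows of the same symbol. Ratios used FPKM as deposited. Log2 fold changes used a pseudocount of 0.1, so differences of low genes are understated. The interval of a ratio was propagated on the log scale from the deposited bounds, and implied reads are the square of 2 times the FPKM over its distance to the upper bound. Depth is otherwise unknown. Akap8, Pde4dip and Prkaca were not matched by symbol in both files.

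The 10 genes and all lists were chosen with earlier results of these data known. From each other list at most 4 genes were named, those at least 2-fold apart with intervals that did not overlap, or else the 2 highest in control, of which 1 is not reported here. Sequences came from RefSeq (GRCm38.p6) and GENCODE transcripts. The calls of 2-fold differences and of intervals apart, and the recovery of implied reads, were tested on simulated data. Those data held no reads counted in pairs and no loci drawn differently between libraries, and intervals of ratios were not tested. Alternatives were other pseudocounts, scalings, thresholds and filters, widened intervals and members left out. Calculations and figures used Python 3.11.15 (scipy 1.17.1, pandas 2.3.3, matplotlib 3.10.9, numpy 2.4.6).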

Additional observations from a re-analysis of the deposited data

Results flagged for a closer look

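Loci without a gene name entered no comparison of the report, and those that overlapped a cAMP phosphodiesterase gene were listed at a higher FPKM in Klf9-OE than in control PGCs for 2 genes. At Pde8a, the unnamed locus over the first exon was listed at 4.73 FPKM in Klf9-OE PGCs and no such locus was listed in control PGCs, where the Pde8a row itself reached over this stretch. At Pde3b, unnamed loci summed to 6.62 FPKM in Klf9-OE PGCs and 1.75 in control PGCs, and those of Klf9-OE PGCs lay at the 3′ end of the gene, elsewhere than that of control PGCs. FPKM is per length, so a short locus adds fewer reads than its value would on a whole transcript. At Pde4d the direction was the opposite, with an unnamed locus at 11.8 FPKM in control PGCs and none listed in Klf9-OE PGCs. These values rest on 1 library per condition.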

How the results depend on the processing

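Each of the 10 genes kept the sign of its log2 fold change under pseudocounts of 0.01 and 1. The same held under rescaling to the same upper quartile and, apart from Pde3b, to the same sum. These rescalings shifted log2 values by 0.029 and 0.062. Whether intervals stayed apart under rescaling was not tested. Under rescaling to the same sum, Pde3b, whose intervals overlapped as deposited, moved from -0.04 to 0.02. The number of genes at least 2-fold lower was 1 and rested on Pde4c: it was 0 with a pseudocount of 1, 2 at a ratio of 1.5, 0 at a ratio of 4 and 0 when the intervals also had to be apart, a condition chosen after seeing the data. The number at least 2-fold higher stayed at 0 under the pseudocounts, scalings, filter and thresholds run. The number of genes with intervals apart was 3 as deposited and 1 with widened intervals. The log2 ratio of the summed level was -0.08 and became -0.18 without Pde7a. It became -0.02 without Pde8a, -0.04 without Pde4c and -0.02 under rescaling to the same sum. For the median log2 fold change, leaving out Pde4c was a choice also made after seeing the data, and it gave -0.04. No paired analysis was possible because each condition had 1 library, and for the same reason no replicate could be left out. Depth limits the low genes: Pde7b had about 8 implied reads in each library as deposited, and the interval of its ratio, 0.302 to 2.23, included 2-fold differences in both directions.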
